A study of Canis lupus familiaris with 6 samples.

Results

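The tripartite motif (TRIM) family was followed here in dog kidney cells that carried 2 oncogenic changes and were grown alone or among neighbours that carried 1 of them. Members were taken by name from the array's design file, as every non-control probe whose gene name was TRIM followed by digits, or PML, which is TRIM19 by its structure. This gave 62 probes for 40 genes, 39 named TRIM and PML itself, of 14228 named genes and 43603 non-control probes on the array.

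TRIM proteins share an N-terminal RING finger, one or more B-box zinc fingers and a coiled coil, and most are E3 ubiquitin ligases, which pass ubiquitin from a conjugating enzyme to a chosen substrate. The C-terminal part differs between subgroups and sets what each protein binds: a PRY-SPRY domain in many antiviral members, NHL repeats in TRIM2 and TRIM3, a PHD finger and bromodomain in TRIM28 and TRIM33, and a microtubule-binding COS box in TRIM36 and TRIM46. Many antiviral members are known interferon-stimulated genes, and epithelial cells use them in sensing viral RNA through RIG-I and in restricting viruses directly.

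All 6 samples were MDCK cells, a line of dog kidney epithelium, that expressed mCherry-β-catenin Δ131, a stabilised β-catenin without its N-terminus (β-cat ΔN), and GFP-RasV12, an active Ras under tetracycline control. In the single culture (3 arrays) these β-cat ΔN/RasV12 cells grew alone. In the mix culture (3 arrays) they grew with 10 MDCK mCherry-β-catenin Δ131 cells, which lack RasV12, for each of them. Both cultures stood on collagen-coated dishes and received tetracycline, and after 24 h the cells with GFP were sorted out for RNA, which was put with Cy3 label on 1-colour Agilent canine arrays. Per the labels every cell type in both groups was made to express the β-catenin transgene, from a vector with an EF1 promoter, and no culture of MDCK cells without it is among these samples.

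Replicate 1 of each culture lay on slide 1 and replicates 2 and 3 of each on slide 2, so that each slide held both cultures. Between 61.1% and 65.7% of the 43803 spots of an array were well above background, and none was saturated. Nothing in the labels states that replicates were separate cultures, so a p-value here measures the spread between these arrays, which may be technical. Of the epithelial markers, all 7 named on the array were well above background on all 6 arrays, while PTPRC, COL3A1, DCN, PDGFRA and TEK, markers of leukocytes, fibroblasts and endothelium, were on none. Some other markers of those lineages, among them THY1, CD68 and PECAM1, were detected on all 6. All values below are normalised log2 signals, which are log2 of the background-subtracted spot intensity minus the 75th percentile of the same array, and a change is mix culture minus single culture on that scale. They compare a probe with itself across arrays and do not rank one probe against another.

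The 60-base probes on which the results turn are given here, since each value comes from 1 short stretch and 2 genes, PML and TRIM50, were read by probes that differ in their values. Which transcripts the probes read was not checked against a genome, and gene names are those of the array design. Sequences run 5′ to 3′ as in the array design, in lower case with no part marked, with the design's CanFam3.1 positions.
PML, brightest probe (chr30:37268104-37268163, plus strand): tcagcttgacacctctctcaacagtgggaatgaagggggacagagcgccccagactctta
PML, dimmer probe (chr30:37235366-37235425, plus strand): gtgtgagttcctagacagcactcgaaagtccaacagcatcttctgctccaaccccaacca
TRIM21 (chr21:26776258-26776317, minus strand): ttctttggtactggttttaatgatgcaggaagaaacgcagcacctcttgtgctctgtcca
TRIM14 (chr11:55316916-55320477, minus strand): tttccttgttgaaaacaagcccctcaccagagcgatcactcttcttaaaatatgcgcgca
TRIM25 (chr9:31707080-31707139, minus strand): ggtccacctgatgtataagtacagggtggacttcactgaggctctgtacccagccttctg
TRIM2 (chr15:51137815-51141421, plus strand): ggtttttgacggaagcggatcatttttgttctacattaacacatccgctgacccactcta
TRIM50, brightest probe (chr6:6882377-6882436, plus strand): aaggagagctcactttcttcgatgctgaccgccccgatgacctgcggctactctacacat
TRIM50, dimmer probe (chr6:6882864-6882923, plus strand): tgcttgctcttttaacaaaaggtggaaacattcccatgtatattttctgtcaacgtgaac
TRIM8 (chr28:15137597-15137656, plus strand): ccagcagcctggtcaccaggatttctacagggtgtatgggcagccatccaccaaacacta

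The TRIM14 and TRIM2 probes span 3562 and 3607 bases of genome, more than their 60 bases, so their sequence lies on more than 1 exon. The others are contiguous. The dimmer TRIM50 probe has 36.7% G and C, against 43.3% to 55.0% for the other 8.

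Most of the family was detectable in these cells. Of the 62 probes, 38 were well above background on all 6 arrays, and these covered 26 genes. A further 15 probes were above background on no array, a share of 24.2% against 32.3% of all non-control probes. The 42 probes that passed on all 3 arrays of the single culture, of the mix culture or of both were tested, which is 67.7% of the family's probes against 61.1% of all, and they covered 29 genes. For 4 of them, those of TRIM10, TRIM23 and TRIM29 and the dimmer probe of TRIM50, only 1 culture met that rule, with 2 of 3 arrays above background in the other culture. No probe was above background on all arrays of one culture and on none of the other.

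The 11 genes without a tested probe were TRIM6, TRIM17, TRIM22, TRIM34, TRIM38, TRIM42, TRIM55, TRIM58, TRIM65, TRIM71 and TRIM72. TRIM72, a muscle membrane repair protein, was above background on 2 of 6 arrays, and the other 10 were on none. Among them are 4 genes of the interferon-linked group, TRIM6, TRIM22, TRIM34 and TRIM38, whose probes stayed below every array's detection level in both cultures. Their intensities ran from 0.844 to 3.998 units, the highest for a TRIM22 probe in single-culture replicate 1. On these arrays the lowest signal that counted as well above background was 4.19 to 4.48 units. That is no fixed limit, since TRIM65 did not count at up to 6.18 units. By this flag neither culture gave a measurable level of these 4. TRIM6, TRIM34 and TRIM22 are neighbours on chromosome 21, with 43.4 and 34.3 kb between their probes.

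Compared over the 6 arrays without regard to slide, no family probe was called (limma, adjusted p under 0.05 over 26623 tested probes). Across all tested probes 0.883% were called by this rule. At an unadjusted p under 0.05 there were 5 family probes, beside 8.71% of all tested probes, and the smallest adjusted p in the family was 0.104, for TRIM21. Over the 29 genes, each by its brightest probe, the change ran from -0.53 to 0.74 with a median of 0.02, with 15 genes higher and 14 lower in the mix culture. The median over the 42 probes was 0.06, against -0.05 over all tested probes. Of the 29 genes, 13 differed by less than 0.2 in either direction.

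The slide was the larger source of spread. With culture in the model, slide 2 differed from slide 1 in 21 of the 42 probes (limma, adjusted p under 0.05), beside a background of 47.2%, and in 28 probes the difference between slides was larger than that between cultures (66.7%, against 69.6% of all tested probes). When the slide was fitted as a block, which compares cultures within each slide, the median standard error of the family's changes went from 0.23 to 0.12. With this block 7 probes of 7 genes were called, 16.7% of the 42, beside a background of 7.2% of all tested probes. Of these, 6 were higher in the mix culture (background 3.98%) and 1 was lower (background 3.22%). Of the 7, the dimmer TRIM50 probe had entered the test through the mix culture, in which it was higher, so its call is not free of that filter. When only probes above background on all 6 arrays were fitted with the slide block, 7 of 38 family probes were called (background 7.22%), with the dimmer TRIM50 probe out and the brightest PML probe in. The higher ones among the first 7 were PML by its dimmer probe, TRIM21, TRIM14, TRIM25, TRIM2 and TRIM50 by its dimmer probe, and the lower one was TRIM8. Every p with a slide block below is from this fit. None of the 7 was called without a block when all 6 arrays were fitted on the normalised signal. Other ways of allowing for the slide called fewer or more of them. A block for the replicate number, which pairs same-numbered arrays, called TRIM21 and the dimmer probes of PML and TRIM50 (background 5.25%). The 4 arrays of slide 2 alone called these and TRIM14 (background 3.73%). The signal used and its background treatment mattered too. Normexp correction was run on the median spot signal and its median background, not on the signal used elsewhere. It also adds an offset of 50 intensity units, which shrinks changes of dim probes. The parts played by these steps were not separated. With normexp and the slide block, TRIM21 and TRIM2 were called higher and TRIM3 lower (background 8.36%), and the calls of PML, TRIM14, TRIM25, TRIM50 and TRIM8 were lost. Limma without a block on the deposited log2 table called all 7 genes and also TRIM3 and TRIM23 (background 15.3%). The TRIM23 probe, like the dimmer TRIM50 probe, had entered the test through the mix culture, in which it was higher.

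**Figure D1:**
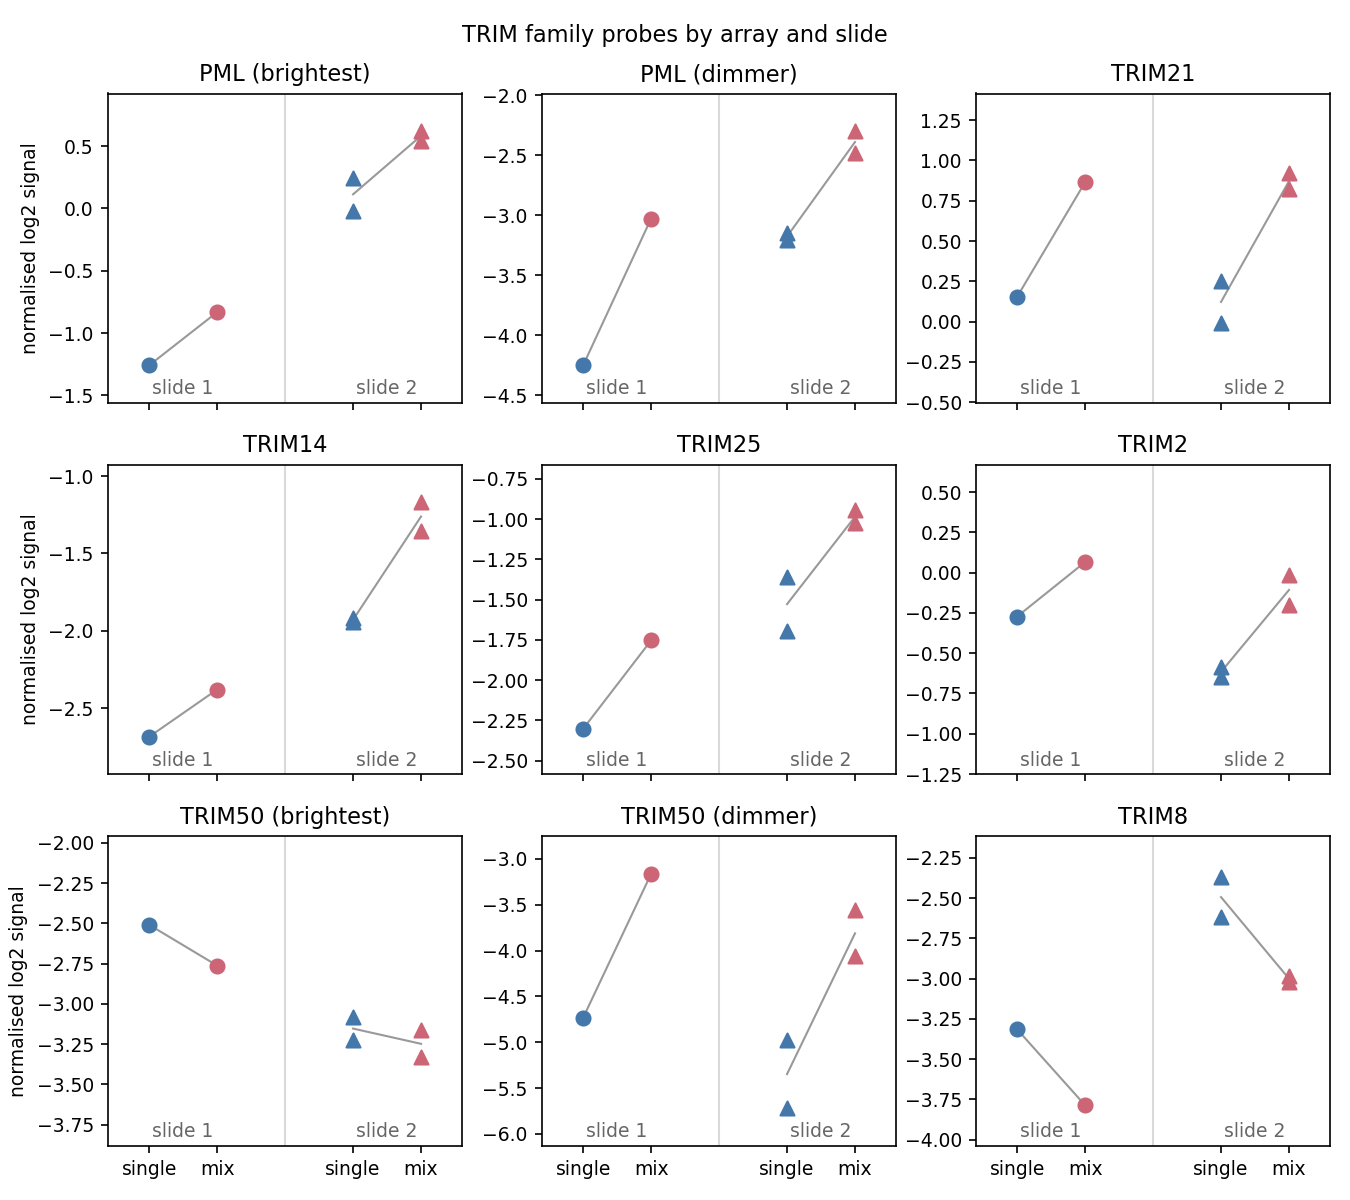
Normalised log2 signal (y axis, own scale in each panel) of 9 probes on each of the 6 arrays, with single culture in blue and mix culture in red, circles for slide 1 and triangles for slide 2, and grey lines between the culture means of a slide. The line rises on both slides for PML, TRIM21, TRIM14, TRIM25, TRIM2 and the dimmer TRIM50 probe and falls on both for TRIM8, while the level of a culture often differs between slides by more than the cultures do.

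TRIM21, a ligase that doubles as a cytosolic antibody receptor and directs antibody-bound virus to the proteasome, had the largest change of any gene's brightest probe. It read 0.15, 0.25 and -0.01 in single-culture replicates 1 to 3, and 0.86, 0.82 and 0.92 in mix-culture replicates 1 to 3. All 3 mix arrays lay above all 3 single arrays, and the slides did not stand apart, with a difference between them of -0.01. The change was 0.74 (SE 0.15, adjusted p = 0.104, a fold of 1.67), and with the slide block it rose at SE 0.11 and adjusted p = 0.00825 (replicate block 0.0178). Within slide 1 the change was 0.71 and within slide 2 it was 0.75. With normexp and the slide block it was 0.60 (adjusted p = 0.00233). In bulk RNA of this kind, more cells with the transcript and more transcript per cell cannot be told apart.

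PML, the scaffold of the nuclear bodies that carry its name and an interferon-stimulated gene, was read by a pair of probes. The dimmer one read -4.25, -3.15 and -3.20 in single-culture replicates 1 to 3, and -3.03, -2.48 and -2.30 in mix-culture replicates 1 to 3. The cultures did not overlap, and slide 1 lay below slide 2 in both. Its change was 0.93 (SE 0.34, adjusted p = 0.484), and it rose with the slide block (SE 0.13, adjusted p = 0.00513; replicate block 0.0111), by 1.22 on slide 1 and 0.79 on slide 2. Without single-culture replicate 1 the unblocked change was 0.57, and with normexp and the slide block it was 0.25 and not called (adjusted p = 0.0550). The brightest PML probe read -1.26, 0.25 and -0.02 in the single culture, and -0.83, 0.54 and 0.62 in the mix culture. Here the cultures overlapped over the 6 arrays but not within a slide, since both slide 1 arrays were the lowest of all. The change of this probe was 0.45 (SE 0.52, adjusted p = 0.923), and with the slide block its adjusted p of 0.0512 missed the threshold (SE 0.11). The change was 0.43 within slide 1 and 0.47 within slide 2. Without single-culture replicate 1, which leaves the low mix-culture array of slide 1 with no partner, the unblocked change was -0.002.

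TRIM25 attaches ubiquitin to RIG-I and so helps to pass on the viral RNA signal. In the single culture it read -2.30, -1.36 and -1.69, and in the mix culture -1.75, -1.02 and -0.95. Mix arrays were the higher ones within each slide, and the mix array of slide 1 lay below the single arrays of slide 2. The change was 0.54 (SE 0.31, adjusted p = 0.755), and it rose with the slide block (SE 0.12, adjusted p = 0.0339), by 0.55 on slide 1 and 0.54 on slide 2. Without single-culture replicate 1, which leaves the mix array of slide 1 with no partner, the unblocked change was 0.29. With normexp and the slide block it was 0.24 and not called (adjusted p = 0.0825).

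TRIM14, which lacks a RING finger and acts as an adaptor of the mitochondrial antiviral protein MAVS, showed the same arrangement. Its single-culture values were -2.69, -1.94 and -1.91, and its mix-culture values were -2.38, -1.17 and -1.35. Within each slide the mix arrays were the higher ones, while across slides the cultures overlapped. The change was 0.55 (SE 0.37, adjusted p = 0.801), and it rose with the slide block (SE 0.12, adjusted p = 0.0342), by 0.31 on slide 1 and 0.67 on slide 2. The unblocked change was 0.30 without single-culture replicate 1, 0.32 without mix-culture replicate 2 and 0.92 without mix-culture replicate 1. Each of these fits leaves the cultures unequally spread over the slides. With normexp and the slide block it was 0.20 and not called (adjusted p = 0.154).

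TRIM26, a ligase linked to turnover of IRF3, was the one tested gene of the interferon-linked group with a negative change. It read -1.44, -0.16 and -0.45 in the single culture, and -1.81, -0.56 and -0.50 in the mix culture. The cultures overlapped over all arrays, and the change of -0.27 did not pass with the slide block (adjusted p = 0.191). Over this group, 5 of the 9 genes on the array were tested, 4 had a positive and 1 a negative change, and the median was 0.54. With the slide block 3 were called by their brightest probe (TRIM21, TRIM14 and TRIM25), beside 3.98% of all tested probes called higher. That share counts probes, not genes, and the group was written with earlier results of these data known, so no result is read from the contrast. With normexp and the slide block TRIM21 was the only one of the 5 called.

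TRIM8, a ligase known to act on TNF and NF-κB signalling, was the single family member called lower. It read -3.31, -2.37 and -2.62 in single-culture replicates 1 to 3, and -3.79, -3.02 and -2.98 in mix-culture replicates 1 to 3. The mix arrays were the lower ones within each slide, and the cultures overlapped across slides. The change was -0.49 (SE 0.32, adjusted p = 0.790), and with the slide block it fell at SE 0.11 and adjusted p = 0.0360, with -0.47 on slide 1 and -0.51 on slide 2. The unblocked change was -0.77 without single-culture replicate 1, -0.23 when mix-culture replicate 1 was left out and -0.29 when single-culture replicate 2 was. Here too the cultures were left unequally spread over the slides. Under normexp and the slide block it was -0.24 and not called (adjusted p = 0.0799).

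The other 8 tested genes that act on innate signalling were not called in either fit, and their changes lay between -0.21 for TRIM4 and 0.46 for TRIM23. TRIM23, which also carries a GTPase-like ARF domain, read -5.03, -5.11 and -4.98 in the single culture and -4.42, -4.50 and -4.82 in the mix culture. These did not overlap, but the probe was near background and above it on 2 of 3 single-culture arrays (slide block adjusted p = 0.0666). It was tested only because it passed in the mix culture, in which it was higher, so its lack of overlap is not free of that filter. The median over the 9 genes was -0.10.

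TRIM2 and TRIM3, NHL-repeat ligases best known in neurons, had opposite signs. TRIM2 read -0.27, -0.58 and -0.65 in the single culture and 0.07, -0.02 and -0.20 in the mix culture, with no overlap. Its change was 0.45 (SE 0.17, adjusted p = 0.506), and it rose with the slide block (SE 0.11, adjusted p = 0.0463), by 0.34 on slide 1 and 0.51 on slide 2. Under normexp and the slide block it was 0.29 (adjusted p = 0.0323). A brighter probe, which the design only describes as TRIM2, had a change of 0.48. It was not called with the slide block (limma, adjusted p = 0.0505). TRIM3 had changes of -0.34 and -0.41 by its brightest and dimmer probe, and neither passed with the slide block (adjusted p = 0.0832 and 0.0720), while with normexp as well the brightest was called, at -0.28 (adjusted p = 0.0406). Whether TRIM2 and TRIM3 differed from each other was not tested.

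TRIM50, a ligase described in gastric parietal cells, was the gene whose probes were farthest apart. The dimmer probe read -4.73, -5.72 and -4.98 in single-culture replicates 1 to 3, and -3.16, -3.56 and -4.06 in mix-culture replicates 1 to 3. The cultures did not overlap, and single-culture replicate 2 was not well above background. The change was 1.55 (SE 0.33, adjusted p = 0.121), and with the slide block its adjusted p was 0.00474 (SE 0.21; replicate block 0.00881), at 1.57 on slide 1 and 1.54 on slide 2. This probe was tested only because it passed in the mix culture, and without single-culture replicate 2, the array at background, the unblocked change was 1.26. Normexp with the slide block gave 0.19, which was not called (adjusted p = 0.108). The brightest probe of the same gene read -2.51, -3.08 and -3.22 in the single culture, and -2.76, -3.33 and -3.16 in the mix culture. These values overlapped, and the change of -0.15 did not pass with the slide block (SE 0.11, adjusted p = 0.418). The probes lie close together on the same strand and gave changes that were 1.69 apart, so these arrays give no single direction for TRIM50.

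In the 7 other genes with more than 1 tested probe the probes were between 0.04 and 0.48 apart, with PML the widest. Those of TRIM37 (-0.08 to 0.19) and TRIM28 lay on both sides of 0. TRIM28, the KAP1 co-repressor that KRAB zinc finger proteins recruit to chromatin, was read by 4 probes whose changes lay between -0.04 and 0.04. With the slide block the 95% interval for its brightest probe ran from -0.30 to 0.27, and without a block from -0.65 to 0.62. TRIM33, its relative that ubiquitinates SMAD4, had changes of 0.02 and 0.10, with an interval for the brightest probe of -0.23 to 0.27 with the slide block and -0.38 to 0.42 without. The dimmer TRIM33 probe's interval with the slide block reached 0.38. With 3 arrays in a group, these values leave room for changes anywhere within these intervals.

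Among the microtubule-associated members, TRIM36 had the largest change, -0.32 (adjusted p = 0.832; with the slide block 0.319). Among the 8 other tested members the largest by brightest probe was that of TRIM10, a gene of erythroid maturation, at -0.53 (adjusted p = 0.777; with the slide block 0.242). TRIM10 was close to background, at -4.66, -4.87 and -4.83 in the single culture and -4.86, -6.11 and -4.98 in the mix culture. Mix-culture replicate 2 was the lowest and was not well above background, and without it the change was -0.14. The TRIM10 probe was tested only because it passed in the single culture, in which it was higher. TRIM10 and TRIM26 lie 37.2 kb apart on chromosome 35.

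**Figure D2:**
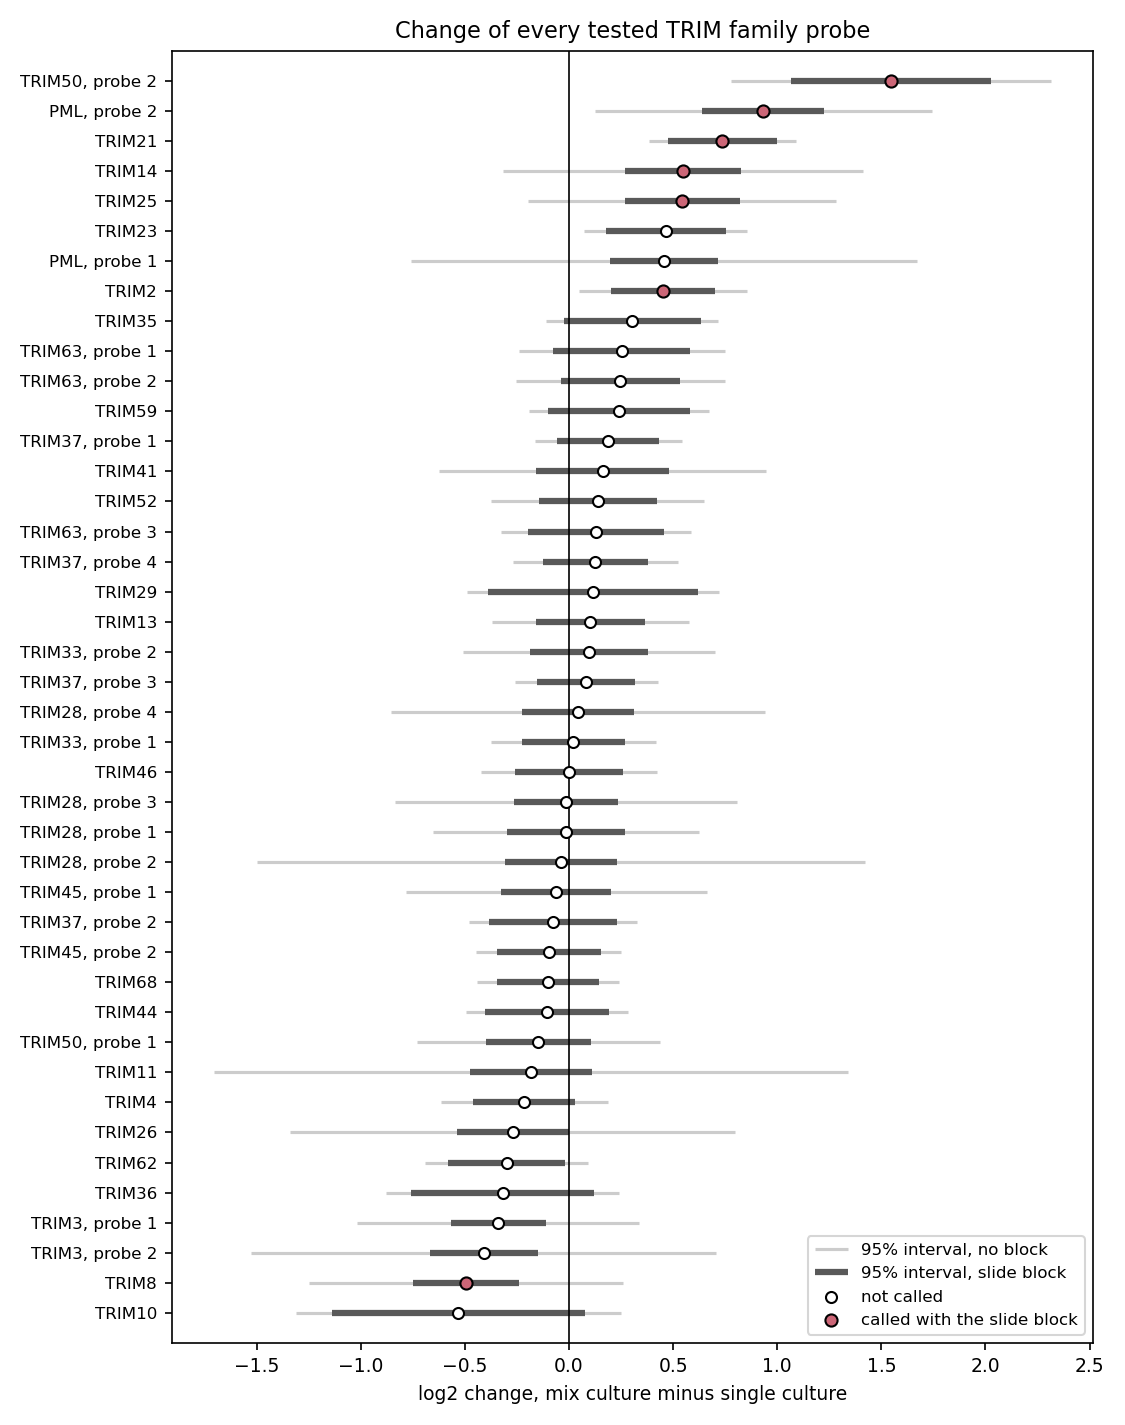
Change in normalised log2 signal, mix minus single culture (x axis), for all 42 tested family probes in order of size, with the 95% interval without a block (thin) and with the slide block (thick); probes of a gene are numbered from the brightest. Filled points are the 7 probes called with the slide block, 6 to the right of 0 and TRIM8 to the left, and the other 35 are open.

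The change had the same sign on slide 1 and on slide 2 in 28 of the 42 probes (66.7%, against 70.7% of all tested probes). The cultures did not overlap over the 6 arrays in 7 probes, or 16.7%, beside a background of 16.5%. These were PML by its dimmer probe, TRIM2, TRIM21, TRIM23, TRIM37 by its brightest probe and TRIM50 by its dimmer probe, all higher in the mix culture, and TRIM62, lower. Of these, the TRIM23 and dimmer TRIM50 probes were tested only through the mix culture, in which they were higher. Within both slides at once the cultures did not overlap in 19 probes, or 45.2%, beside a background of 40.6%. Of these 10 were higher in the mix culture (background 16.4%) and 9 lower (background 24.2%). A test of whether the culture difference itself differed between slides called 0 family probes (limma, adjusted p under 0.05, background 0.0376%). At an unadjusted p under 0.05 it gave 2 of the 42, TRIM59 and TRIM29. The share of all tested probes at that threshold was not counted, so no result is read for these genes. The TRIM29 probe was also tested only through the mix culture.

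**Figure D3:**
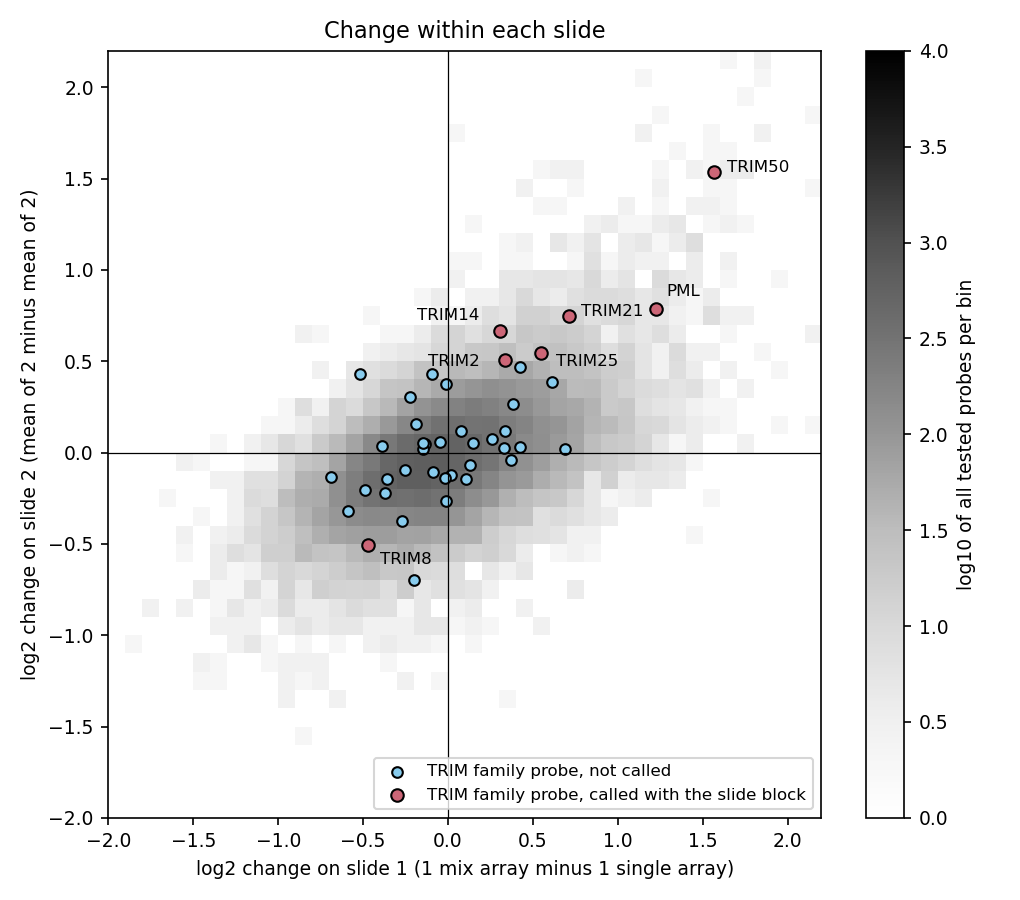
Change in normalised log2 signal on slide 1 (x axis, 1 array of each culture) and on slide 2 (y axis, means of 2 arrays of each culture) for family probes, over a grey map of how many of all tested probes fall in each bin (log10 scale). The 7 probes called with the slide block (red) lie to the upper right of 0 or, for TRIM8, to its lower left, with the dimmer TRIM50 probe at 1.57 and 1.54 and the dimmer PML probe at 1.22 and 0.79.

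The partners of these ligases were looked at by name, each gene by its brightest probe, in lists written with earlier results of these data known. The shares of all tested probes given beside them count probes, not genes. Among the substrates and partners of innate TRIM proteins 12 of 18 listed symbols were named on the array. All 12 were tested, and the median change was 0.22. DDX58, which encodes RIG-I, rose by 2.22 (SE 0.24, adjusted p = 0.00895) and IFIH1, which encodes MDA5, rose by 1.44 (SE 0.14, adjusted p = 0.00550), both without a block. TBK1, the kinase downstream of MAVS, was at 0.49 (adjusted p = 0.374) and rose with the slide block (adjusted p = 0.0412). No other gene of this list was called in either fit, so 3 of 12 were called with the slide block, beside 7.2% of all tested probes.

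Among ubiquitin-conjugating enzymes, which hand ubiquitin to the ligases, 10 were tested, with a median of -0.07. UBE2L6, the enzyme that also conjugates ISG15, was at 1.06 (SE 0.23, adjusted p = 0.142) and was the only one of the 10 called with the slide block (adjusted p = 0.00642), a count near the 7.2% of all tested probes. None of 10 tested partners of PML in nuclear bodies was called in either fit, beside 7.2% of all tested probes with the slide block, and their median was -0.11. Of 6 tested factors of interferon-induced transcription, STAT2 alone was called with the slide block, beside the same 7.2%. It was at 0.66 (SE 0.10, adjusted p = 0.00695, and 0.323 without the block), and the median of the 6 was 0.08.

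**Figure D4:**
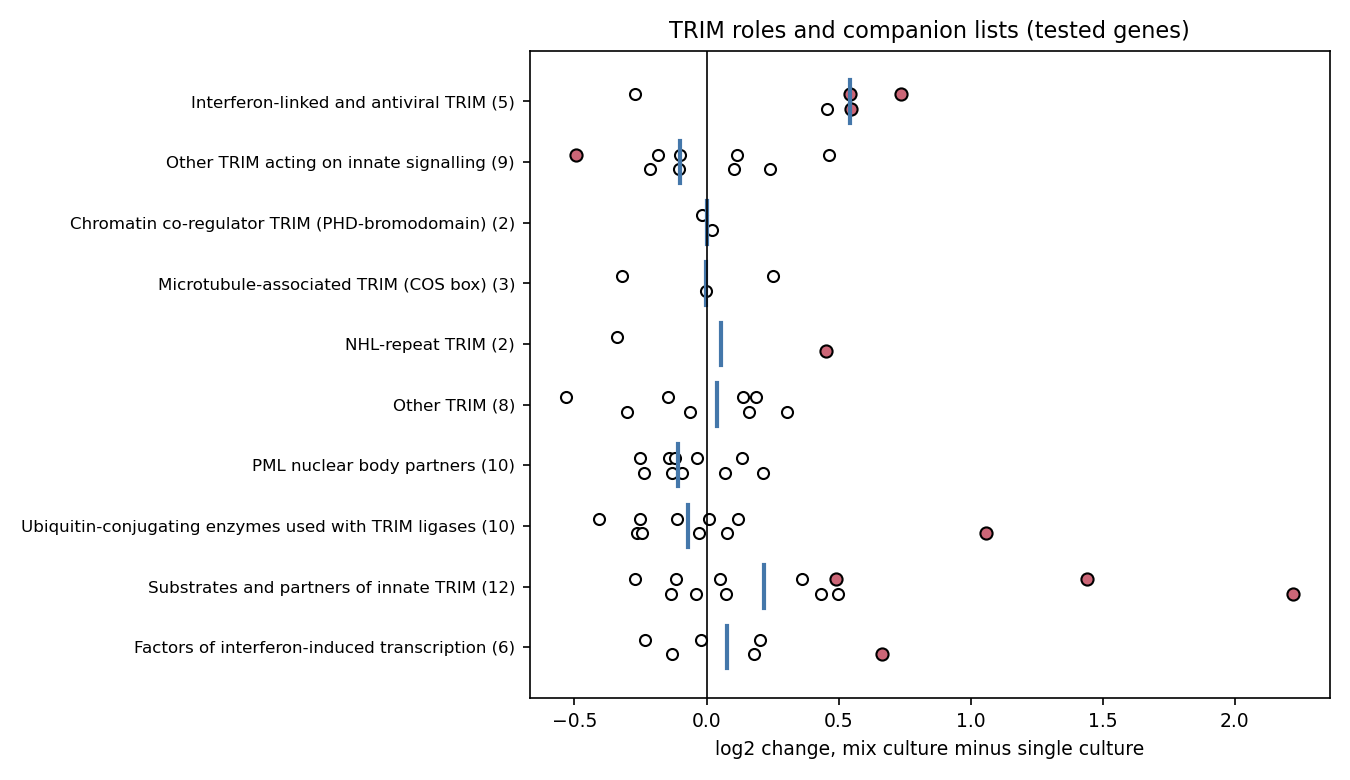
Change in normalised log2 signal, mix minus single culture (x axis), of each tested gene by its brightest probe, grouped by TRIM role (top 6 rows) and by lists of partner genes (lower 4 rows), with the number of tested genes in brackets and a blue bar at the median. Filled points were called with the slide block: the interferon-linked row has its median at 0.54, the other TRIM rows lie between -0.10 and 0.06, and DDX58 and IFIH1 stand farthest right.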

How the data were processed

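Each array has a deposited scanner file of linear spot intensity, background-subtracted by Agilent Feature Extraction (11.5.1.1 for slide 1, scanned at 3 µm, and 12.1.1.1 for slide 2, at 5 µm) and not scaled between arrays. A further table from the authors holds log2 values for these arrays, made by unstated steps, and was an alternative source. Gene names and probe sequences came from the scanner file of single-culture replicate 1.

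Outlier spots (5 to 9 per array) were dropped, spots of a probe averaged, and each array's 75th percentile (161 to 233 units) subtracted on the log2 scale. Probes that were well above background on all 3 arrays of either culture (26623) were tested with limma 3.58.1 in R 4.3.3, with Benjamini-Hochberg adjustment over all of them and a threshold of 0.05. The script was tested on simulated data. A gene is given by the brightest tested probe that bears its gene name in the design, unless stated.

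Same-numbered arrays deviated together (correlations 0.801, 0.530 and 0.572), and so did other pairs on slide 2 (0.610 and 0.632), so the arrays pair by slide, and the number adds no pairing beyond it that these correlations show.

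Members and gene lists were chosen with earlier results of these data known. Named are PML, genes called in either fit, the largest change in each role group, and every probe of a gene whose probes disagree. Of the 40 symbols, 38 were in RefSeq's UU_Cfam_GSD_1.0 gene table, from which no coordinates were taken. The slide block with normexp, or with probes above background on all 6 arrays, was added after seeing the data. Other scalings, filters, blocks, left-out arrays and the methods' unpaired t-type test were alternatives.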

Additional observations from a re-analysis of the deposited data

How the results depend on the processing

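Without a block, 0 of the 29 family genes were called by their brightest probe, and this held for quantile scaling, normexp background correction, no filter on dim probes, the filter on all 6 arrays, the mean of a gene's probes, the methods' test and leaving out each array in turn (0 to 0). The slide block called 5 genes. The replicate block, which pairs same-numbered arrays, called 1 (TRIM21, and with any probe counted also PML and TRIM50). Slide 2 alone called 2 (TRIM14 and TRIM21). The slide block with normexp called 3 (TRIM2, TRIM21 and TRIM3). Over probes above background on all 6 arrays the slide block called 6 (PML in addition to its 5). Limma without a block on the authors' values called 8 (PML, TRIM14, TRIM2, TRIM21, TRIM23, TRIM25, TRIM3 and TRIM8). The combined fits were chosen after seeing the data.

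Over all probes 235 were called. The count was 101 with normexp, 143 with the filter on all 6 arrays, 1917 with the slide block, 1399 with the replicate block, 999 on slide 2 alone, 2226 with the slide block and normexp, 1850 with the slide block over probes above background on all 6 arrays, 4077 with the authors' table and 8 with the methods' test, and 92 to 247 with 1 array left out. Leaving out single-culture replicate 3 gave 92, mix-culture replicate 2 also 92, and mix-culture replicate 3 gave 99. The share of calls that were higher was 92.3%, against 55.3% with the slide block and 47.8% with the authors' table.

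Of 260 alternative values for 14 named probes, 220 kept direction and side of the threshold, 33 passed it newly and 7 turned. Values on slide 1 alone, which have no test, are counted here by direction only. The turned ones were TRIM33 on slide 1 alone (-0.047), TRIM50 as the mean of its probes (0.70), and 5 of the changes with 1 array left out. These concern the brightest PML probe without single-culture replicate 1 (range over left-out arrays -0.0020 to 0.93), TRIM26 without mix-culture replicate 1 (-0.65 to 0.16), TRIM33 without single-culture replicate 3 or mix-culture replicate 1 (-0.080 to 0.12) and the brightest TRIM50 probe without single-culture replicate 1 (-0.31 to 0.067). The fits with 1 array left out had no block, so their cultures were unequally spread over the slides. Their ranges therefore mix slide and culture differences. Within slides 1 and 2 the changes were 0.43 and 0.47 for the brightest PML probe and -0.37 and -0.22 for TRIM26. They were -0.25 and -0.09 for the brightest TRIM50 probe and -0.05 and 0.06 for TRIM33. Other ranges with 1 array left out were 0.57 to 1.14 for the dimmer PML probe, 0.30 to 0.92 for TRIM14, 0.29 to 0.80 for TRIM25, -0.77 to -0.23 for TRIM8, -0.59 to -0.12 for TRIM3, -0.53 to -0.15 for TRIM36 and 0.67 to 0.80 for TRIM21. Normexp moved the dimmer TRIM50 probe from 1.55 to 0.19, the dimmer PML probe from 0.93 to 0.25, TRIM14 from 0.55 to 0.20, TRIM25 from 0.54 to 0.24, TRIM8 from -0.49 to -0.24, TRIM10 from -0.53 to -0.09 and TRIM36 from -0.32 to -0.13, and put the median of the family's probes at -0.01. The causes were not tested. With 3 arrays in a group and 11 genes without a tested probe, low levels and small changes lie outside what these arrays measure.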

Other observations

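The array design also holds 12 probes whose description, but not whose gene name, is a TRIM gene, for 9 names. Of these 6 were tested, and 0 were called without a block. A TRIM2 probe among them was called with the slide block (change 0.68, adjusted p = 0.535 without the block and 0.0304 with it). The other TRIM2 probes described this way had changes of 0.48 and 0.33, with slide block adjusted p of 0.0505 and 0.108. The one at 0.48 was the brightest TRIM2 probe, with means of 2.16 in the single and 2.64 in the mix culture, and was not called. All 4 TRIM2 probes, counting the one in the report, were higher in the mix culture. TRIM9 and TRIM69 were above background on no array. Which transcripts these probes read was not checked against a genome.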
